A study of Mus musculus with 12 samples.

Results

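The stemness and plasticity genes described here are 10 mouse genes chosen by name, Sox2, Sox4, Sox9, Klf4, Klf5, Myc, Lgr5, Nes, Cd44 and Prom1, out of 21887 protein-coding genes with a position. They were read in peak lists of CUT&Tag, which cuts and tags DNA beside an antibody-bound histone mark, from organoids derived from PyMT (polyoma middle T antigen) mammary tumours, which the labels also call tumoroids and spheroids, with the cell type given as breast cancer and the genotype as WT in every group. The organoids were taken 3 days after a control treatment (Ctrl), SR2 or THC, and H3K4me3 and H3K27me3 were each profiled in 2 replicates of each treatment, 12 libraries of 500000 cells each. The title of the series concerns modulation of the cannabinoid receptor CB2R, luminal-like differentiation and plasticity. What SR2 stands for, what the control treatment was and whether the replicates are separate cultures are not given in the sources used here, and the p-values below cover only the spread among these libraries, which may be technical.

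H3K4me3 marks the promoters of genes that are transcribed or poised for it, and in many cell types the widest stretches of the mark lie over genes of cell identity. H3K27me3 is laid down by Polycomb complexes at silent developmental genes, and promoters that carry both marks are called bivalent, a state first described at developmental regulators in embryonic stem cells. In the mammary gland, Sox9 is a regulator of stem and luminal progenitor cells, while Sox2, Klf4 and Myc are 3 of the factors that reprogram somatic cells to pluripotency. CD44, encoded by Cd44, and CD133, encoded by Prom1, are surface proteins used to isolate tumour-initiating cells, and LGR5 is a receptor of R-spondins that potentiates Wnt signalling.

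For each gene the H3K4me3 measure was the number of bp covered by the peaks of a library in the region at the gene's start, within 1 kb. The RefSeq promoter table (GRCm38.p6, matching mm10) gave the start of Sox2, Sox4, Klf4, Nes, Cd44 and Prom1. For Sox9, Klf5, Myc and Lgr5 either end of the gene was allowed. The 250 bases upstream of the start are shown for starts that lay under a peak in few, in most or all, and in no libraries, with each CG dinucleotide in capitals, since CG-rich promoters are those that most often carry H3K4me3. Sox2 (mm10 chr3:34649745-34649994, plus strand) had its start covered by a peak in 1 library, Nes (chr3:87970843-87971092, plus strand) in 2, and Klf4 (chr4:55532476-55532725, minus strand) in 5. Prom1 has 2 starts in the table, of which the outer (chr5:44101737-44101986, minus strand) was covered in 6 libraries and the inner (chr5:44094769-44095018, minus strand) in 0.
Sox2: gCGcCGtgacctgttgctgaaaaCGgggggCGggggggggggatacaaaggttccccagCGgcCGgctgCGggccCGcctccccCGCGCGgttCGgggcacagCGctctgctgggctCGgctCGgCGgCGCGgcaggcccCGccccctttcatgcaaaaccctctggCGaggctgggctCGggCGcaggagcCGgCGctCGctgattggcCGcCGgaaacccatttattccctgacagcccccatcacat
Nes: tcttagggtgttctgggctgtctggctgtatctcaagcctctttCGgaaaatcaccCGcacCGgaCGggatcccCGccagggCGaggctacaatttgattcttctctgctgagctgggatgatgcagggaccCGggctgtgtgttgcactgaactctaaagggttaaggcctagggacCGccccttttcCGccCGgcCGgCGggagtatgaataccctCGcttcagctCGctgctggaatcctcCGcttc
Klf4: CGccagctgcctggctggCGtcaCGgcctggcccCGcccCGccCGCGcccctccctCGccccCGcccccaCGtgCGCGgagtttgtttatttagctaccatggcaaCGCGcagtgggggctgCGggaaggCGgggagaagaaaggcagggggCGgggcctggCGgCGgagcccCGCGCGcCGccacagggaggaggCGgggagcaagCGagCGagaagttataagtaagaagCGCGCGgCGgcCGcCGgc
Prom1, outer start: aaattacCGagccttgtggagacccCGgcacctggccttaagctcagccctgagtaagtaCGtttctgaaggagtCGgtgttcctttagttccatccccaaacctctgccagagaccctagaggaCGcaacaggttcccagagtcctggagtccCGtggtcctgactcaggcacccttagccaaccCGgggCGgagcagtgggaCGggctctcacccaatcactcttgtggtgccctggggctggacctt
Prom1, inner start: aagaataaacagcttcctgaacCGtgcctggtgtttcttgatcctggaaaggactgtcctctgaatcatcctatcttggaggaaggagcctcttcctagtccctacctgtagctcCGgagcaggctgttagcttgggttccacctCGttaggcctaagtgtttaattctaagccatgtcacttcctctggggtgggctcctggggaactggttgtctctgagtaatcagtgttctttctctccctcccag

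CG was counted in the window from 250 bases before to 50 bases after each start. The motif reads the same on both strands and cannot overlap itself. At least 1 CG was present in 95.4% of the 21263 promoters of the table. The median was 24 in promoters whose start lay under a peak in all 6 libraries and 4 in those with no peak. Klf4 held 40, more than 94.9% of promoters. Sox2 held 27, more than 79.3% of promoters, although its start was covered only in Ctrl replicate 2, and Nes held 18. The outer Prom1 start held 10 and the inner 4. Sox4 held 12 and Cd44 held 6, below the median of 13 over all promoters. The Sox4 start was covered in all 6 libraries and the Cd44 start in 3, its peaks beginning just past the start in the other 3.

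The libraries differed in number of peaks and in summit pileup, and THC replicate 1 stood apart. The Ctrl lists of H3K4me3 held 18383 and 16442 peaks, those of SR2 14812 and 15190, and those of THC 11924 and 13229 (replicates 1 and 2). The median pileup at a summit, recovered from the authors' values, was 62 and 58 fragments for the Ctrl libraries, 36 and 54 for the SR2 libraries, and 21 and 44 for the THC libraries. The lowest, genome-wide background pileup did not follow the same order, at 1.05 and 1.02 (Ctrl), 1.16 and 1.10 (SR2), and 0.752 and 1.52 (THC). The replicate number is the batch number of the labels. The H3K27me3 lists were short and uneven, from 2712 peaks in Ctrl replicate 1 to 70 in THC replicate 2. All 10 epithelial marker genes had an H3K4me3 region in both Ctrl libraries, as did 5 of 6 luminal and 3 of 6 basal mammary markers. The basal markers Krt5, Krt14 and Krt17 lacked a peak only in THC replicate 1, and Trp63, Acta2 and Mylk had none in any library. The epithelial markers Krt18 and Krt19 and the luminal marker Kit also lacked a peak only in THC replicate 1. Of the other luminal markers, Prlr and Esr1 lacked one in both THC libraries, and Esr1 also in SR2 replicate 1. Foxa1 had a peak only in Ctrl replicate 1 and SR2 replicate 2, while Gata3 and Elf5 were marked in all 6 libraries.

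Across the 6 H3K4me3 libraries the genes fell into 3 kinds. Myc, Sox4, Klf4, Sox9 and Cd44 carried wide regions over the start and into the gene, with mean Ctrl breadths of 2654 bp or more. Prom1 and Klf5 carried regions of ordinary breadth, with Ctrl means of 1479.5 and 1458.5 bp. Sox2 and Lgr5 carried short, weak regions and Nes a weak region of middle breadth. These 3 were called in both Ctrl libraries and missing from most treated libraries. In all, 7 of the 10 genes were marked in all 6 libraries, beside 46.5% of all protein-coding genes. All 10 were marked in both Ctrl libraries, beside 11818 of the 21887 protein-coding genes.

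**Figure D1:**
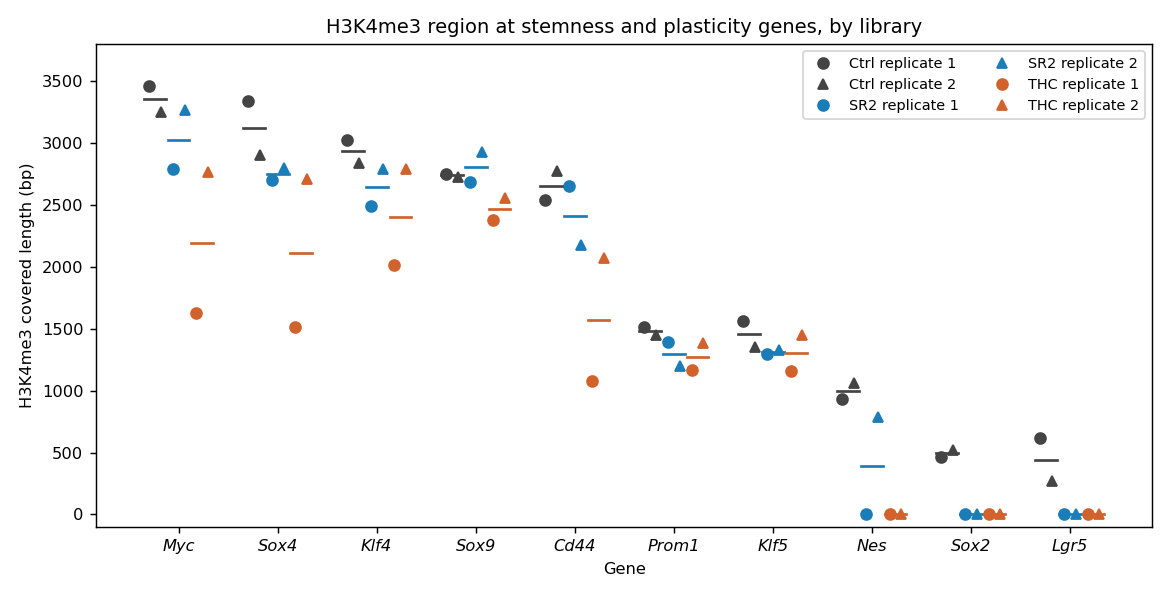
H3K4me3 covered length in bp (vertical axis) of the region at each gene's start, with a point per library and a line at the mean of the 2 libraries of a treatment. Myc, Sox4, Klf4, Sox9 and Cd44 lie highest, from 2536 to 3464 bp in Ctrl, and Sox2, Lgr5 and, apart from SR2 replicate 2, Nes lie at 0 bp in the treated libraries.

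Myc encodes the bHLH transcription factor MYC, and its region (mm10 chromosome 15, 61984767 to 61988230) covered one end of the gene and the adjoining part of its body. It held 3464 and 3247 bp in Ctrl, 2788 and 3263 bp in SR2, and 1624 and 2764 bp in THC. THC replicate 1 was far below the other 5 libraries, and Ctrl and THC did not overlap. The Ctrl libraries averaged 3355.5 ± 153.4 bp, the SR2 libraries 3025.5 ± 335.9 bp and the THC libraries 2194.0 ± 806.1 bp (SD, n = 2). Among the regions of a library ordered by breadth, the Myc region stood at rank 18 of 18311 in Ctrl replicate 1, 21 of 16203 in Ctrl replicate 2, 34 and 15 for SR2, and 390 and 36 for THC. The region was 1 peak in both Ctrl libraries and SR2 replicate 2, and was called as 2 peaks in the other 3 libraries.

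Sox4 encodes an HMG-box factor linked to epithelial-mesenchymal transition in mammary tumours. Its region (chromosome 13, 28950487 to 28953855) held 3342 and 2902 bp in Ctrl, 2701 and 2796 bp in SR2, and 1513 and 2710 bp in THC. Both Ctrl libraries were above all treated libraries, and THC replicate 1 was again the lowest, at rank 578 against ranks 20 to 68 in the other 5 libraries. A further H3K4me3 peak lay upstream of Sox4 in all 6 libraries, its nearest edge at position −4327 relative to the start. It held 1107 and 1018 bp in Ctrl, 1205 and 914 bp in SR2, and 555 and 763 bp in THC. This distal site was thus shorter in both THC libraries than in the other 4.

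The Sox9 region (chromosome 11, 112781293 to 112784609) varied least among the wide regions. It held 2751 and 2726 bp in Ctrl, 2686 and 2927 bp in SR2, and 2378 and 2559 bp in THC. Both THC libraries were the lowest in bp, yet the region stood at rank 22 in THC replicate 1 and 64 in THC replicate 2, against 115 and 100 for Ctrl and 51 and 43 for SR2. A small peak of 265 to 502 bp lay further into the gene, 2679 bp or more from that end, in 5 libraries and was not called in THC replicate 2.

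Klf4 encodes a zinc-finger factor of epithelial differentiation and of reprogramming. Its region (chromosome 4, 55530229 to 55533283), which Gm12506 shares, held 3028 and 2837 bp in Ctrl, 2495 and 2788 bp in SR2, and 2018 and 2792 bp in THC. Both Ctrl libraries were above all treated libraries, SR2 replicate 2 and THC replicate 2 only narrowly so. Ranks by breadth ran from 31 in THC replicate 2 to 98 in SR2 replicate 1, and the region was called as 3 peaks in THC replicate 1 and as 1 peak elsewhere.

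Cd44 encodes the hyaluronan receptor CD44. Its region (chromosome 2, 102898908 to 102901771), also within 1 kb of Gm23731, held 2536 and 2772 bp in Ctrl, 2649 and 2174 bp in SR2, and 1074 and 2073 bp in THC. SR2 overlapped Ctrl, while both THC libraries were below all others. THC replicate 1 kept only the part next to the start, and the region there stood at rank 2480, against ranks 61 to 353 in the other 5 libraries.

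**Figure D2:**
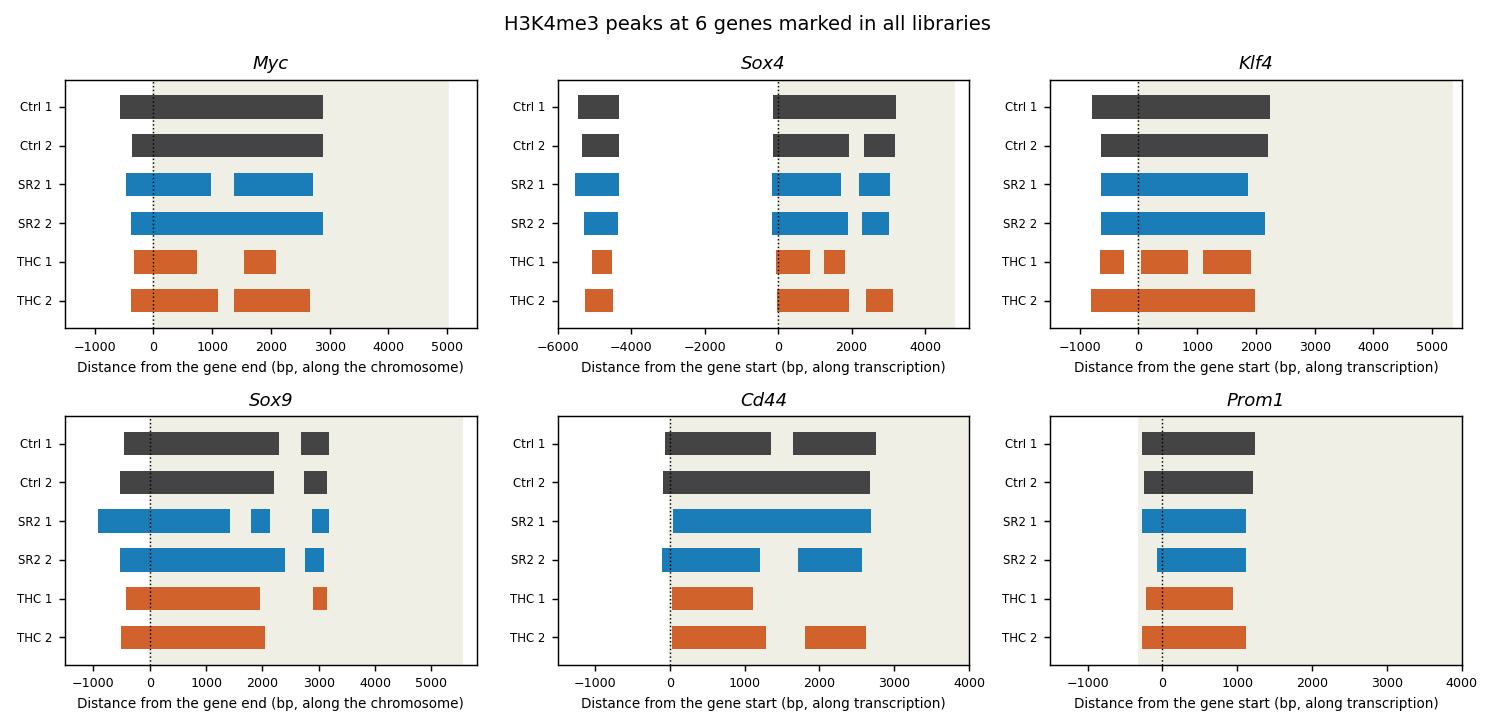
H3K4me3 peaks of the 6 libraries (rows) at 6 genes, with the distance in bp from the gene start or, where the strand is not in the promoter table, from the gene end on the horizontal axis, and the gene shaded. The peaks run far into Myc, Klf4 and Cd44 in Ctrl, and a second peak lies upstream of Sox4 in all 6 libraries. THC replicate 1 has the fewest covered bp in the region of each of the 6 genes.

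Prom1 encodes CD133, a membrane protein of cell protrusions. The region at its outer start (chromosome 5, 44100496 to 44102006) held 1511 and 1448 bp in Ctrl, 1395 and 1200 bp in SR2, and 1164 and 1383 bp in THC. Both Ctrl libraries were above all treated libraries, with SR2 replicate 1 the nearest. The inner start had no peak in any library, and a single peak of 373 bp deep inside the gene was called in SR2 replicate 1 only.

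Klf5 encodes a zinc-finger factor of proliferating epithelial cells. Its region (chromosome 14, 99298336 to 99299898) held 1563 and 1354 bp in Ctrl, 1297 and 1326 bp in SR2, and 1157 and 1449 bp in THC. The THC libraries spanned much of the range of the other 4. By the authors' −log10 q its region was in the top 17.6% to 27.5% of each library, whereas the regions of Sox4, Sox9, Klf4 and Cd44 were in the top 44.4% at best and that of Myc ran from the top 22.9% in THC replicate 1 to 59.8% in THC replicate 2. The summit pileup of Klf5 in Ctrl replicate 1 was 203 fragments, against 194 for Myc, 155 for Sox9, 125 for Klf4, 123 for Sox4 and 100 for Cd44 in the same library. Small second peaks inside Klf5 were called only in Ctrl (337 and 261 bp).

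**Figure D3:**
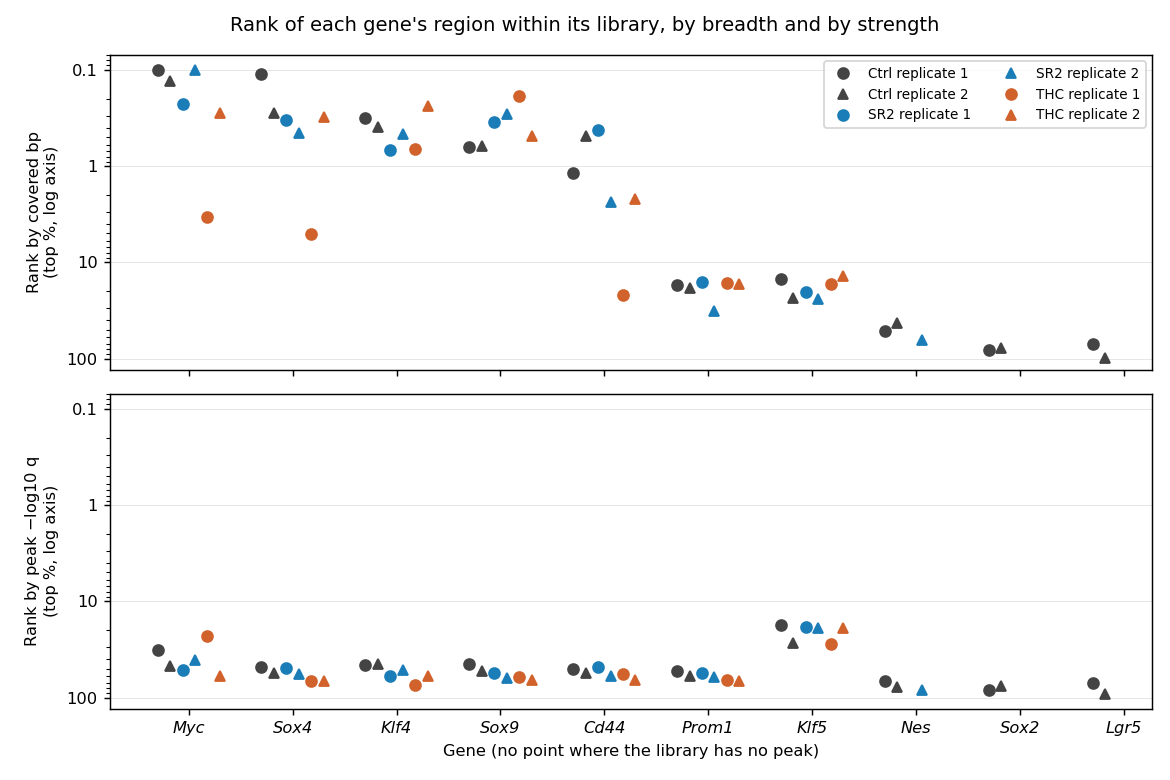
Rank of each gene's region among all regions marked in the same library, as a top percentage on a log axis, by covered bp (upper panel) and by the authors' −log10 q of its strongest peak (lower panel), with a point per library. Myc in Ctrl replicate 1 was in the top 0.10% by breadth and the top 31.8% by −log10 q, and Klf5 was in the top 15.03% and 17.6%.

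Sox2 encodes an HMG-box factor of pluripotent and neural stem cells. Its region (chromosome 3, 34650701 to 34651312, inside the gene and inside Sox2ot) held 467 and 521 bp in Ctrl and 0 bp in all 4 treated libraries. The summit pileups were 12 and 20 fragments, where the lowest pileup of any called summit was 6 in each Ctrl library. By breadth the region was in the top 80.3% and 76.6% of the Ctrl lists, so it was among their shorter regions. The peak began 851 bp past the start in Ctrl replicate 1 and 706 bp past it in Ctrl replicate 2, and only Ctrl replicate 2 held a further peak of 535 bp over the start itself.

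Lgr5 had a region (chromosome 10, 115587135 to 115587749) 31 bp inside the upper gene end, with 615 and 268 bp in Ctrl and 0 bp in all 4 treated libraries. The summit pileups were 14 and 8 fragments, and the region was in the top 70.8% and 97.9% of the Ctrl lists by breadth. The mean was 441.5 ± 245.4 bp in Ctrl (SD, n = 2), and the replicate 2 peak was among the shortest and weakest that the authors called.

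Nes encodes nestin, an intermediate filament protein of neural and other progenitors. Its region (chromosome 3, 87970943 to 87972218) held 936 and 1063 bp in Ctrl, 0 and 784 bp in SR2, and 0 bp in both THC libraries. The summit pileups were 24 and 17 fragments in Ctrl and 16 in SR2 replicate 2. By breadth the region was in the top 52.1% and 42.3% of the Ctrl lists, and by −log10 q in the top 66.7% and 77.9%. The SR2 libraries therefore lay on either side, with replicate 1 like THC and replicate 2 nearer to Ctrl.

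Sox2 and Lgr5 thus had a peak in both Ctrl libraries but lacked it in both SR2 libraries, 2 of 10 genes beside 1.55% of the 11818 protein-coding genes marked in both Ctrl libraries. Sox2, Lgr5 and Nes lacked it in both THC libraries, 3 of 10 beside 5.53%. The 2 comparisons share the Ctrl libraries. Over all genes marked in both Ctrl libraries, the loss of a called peak went with the breadth in Ctrl. Among the 313 genes with a mean Ctrl breadth under 500 bp, which include Sox2 and Lgr5, 31.6% lacked a peak in both SR2 libraries and 69.01% in both THC libraries. Among the 3072 genes between 500 and 1000 bp, which include Nes, the shares were 2.64% and 12.5%. Nes, with a Ctrl mean of 999.5 bp, lay at the upper edge of that range. It was also above the 90th percentile (944.5 bp) of the genes that lacked a peak in both THC libraries. Among the 7637 genes between 1000 and 2000 bp, which include Prom1 and Klf5, the shares were 0.04% and 0.71%. Among the 796 genes at 2000 bp or more, which include Myc, Sox4, Klf4, Sox9 and Cd44, the share was 0% for either treatment. No read counts stand behind a missing peak, so it says that the signal did not pass the caller's threshold and not that the mark was absent. With equal numbers of peaks taken from each library, those of highest −log10 q, the Ctrl peaks of all 3 genes were themselves removed, so that this setting says nothing of their loss. The median summit pileup was lower in all 4 treated libraries than in Ctrl, and its part in these missing peaks was not tested. In such pooled cells, fewer cells with the mark and less of the mark per cell cannot be told apart.

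By limma over 15772 regions with Benjamini-Hochberg adjustment, 0 regions (0.0%) passed 0.05 for SR2 against Ctrl, THC against Ctrl or THC against SR2. At an unadjusted p under 0.05 there were 103 wider and 1405 narrower regions for SR2, 695 and 2903 for THC, and 290 and 1079 for THC against SR2. Changes are log2(covered bp + 200) after centring the libraries on their median. Uncentred, the median region changed by −0.17 with SR2 and by −0.52 with THC. Where a library has 0 bp, the log2 change depends on the pseudocount and on the caller's threshold, and may understate or overstate the difference in signal. For Sox2 the change was −1.66 (SE 0.33, adjusted p 0.122) with SR2 and −1.42 (SE 0.33, adjusted p 0.128) with THC. For Lgr5 it was −1.49 (SE 0.38, adjusted p 0.13) with SR2 and −1.25 (SE 0.38, adjusted p 0.148) with THC. With a pseudocount of 50 bp both genes passed in both comparisons (adjusted p from 0.0179 to 0.0346). In that setting 1059 of the 15772 regions passed for SR2 and 1417 for THC, so passing was not particular to these genes. Other settings shrank the changes. With quantile normalization they were −0.57 (SR2) and −0.16 (THC) for Sox2, and −0.30 (SR2) and 0.11 (THC) for Lgr5, and with a pseudocount of 1000 bp all 4 lay between −0.49 and −0.29. For Nes the change was −2.20 (SE 0.74, adjusted p 0.165) with THC. With SR2 it was −1.29 (SE 0.74, adjusted p 0.835), −0.20 without SR2 replicate 1 and −2.39 without SR2 replicate 2.

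None of the 7 genes marked in every library passed the test. With SR2 their log2 changes ran from −0.03 for Sox4 and Prom1 to 0.17 for Sox9, with standard errors of 0.08 to 0.22 and adjusted p of 0.916 or more. With THC the change was −0.37 for Cd44 (SE 0.22, adjusted p 0.352), −0.23 for Myc (SE 0.18, adjusted p 0.454) and −0.19 for Sox4 (SE 0.18, adjusted p 0.548). Without THC replicate 1 these 3 changes were −0.08, −0.02 and 0.06. The other 4 had positive changes relative to the centring, 0.24 for Sox9, 0.23 for Klf5 (SE 0.08, adjusted p 0.165), 0.19 for Prom1 and 0.10 for Klf4. All 4 turned negative without centring (−0.14 to −0.28), so that their mean bp was lower than in Ctrl but by less than that of the median region.

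In covered bp, 7 of the 10 genes were lower in both SR2 libraries than in both Ctrl libraries, beside 50% of the genes marked in both Ctrl libraries, and 9 of 10 were lower in both THC libraries, beside 85.7%. The exception for THC was Klf5, and the exceptions for SR2 were Sox9, Myc and Cd44. By rank within the library, 5 genes were lower with SR2 beside 34.7% and 6 with THC beside 52.8%. The share for THC was thus close to that of all genes. Within batches, the THC to Ctrl ratio of bp in batch 1 was 0.424 for Cd44, 0.453 for Sox4 and 0.469 for Myc, against a median of 0.616 over genes of like Ctrl breadth, and 0.864 for Sox9. In batch 2 the same ratios were 0.748, 0.934 and 0.851 against a median of 0.89, and 0.939 for Sox9. Cd44 and Myc were therefore below that median in both batches and Sox9 above it in both, as were Klf4, Klf5 and Prom1 beside the medians of their own breadth, while Sox4 was below in batch 1 and above in batch 2. For SR2, Sox9 lay above its median in both batches (0.976 against 0.879, and 1.07 against 0.962), and Cd44 above in batch 1 (1.045) and below in batch 2 (0.784). Nes was below the median of its breadth in both batches with THC (0 against 0.492 and 0.797) and with SR2 (0 against 0.764, and 0.738 against 0.968). Sox2 and Lgr5, at 0, equalled their median of 0 in both batches of THC and in batch 1 of SR2. In batch 2 of SR2 they were below it (0.852).

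**Figure D4:**
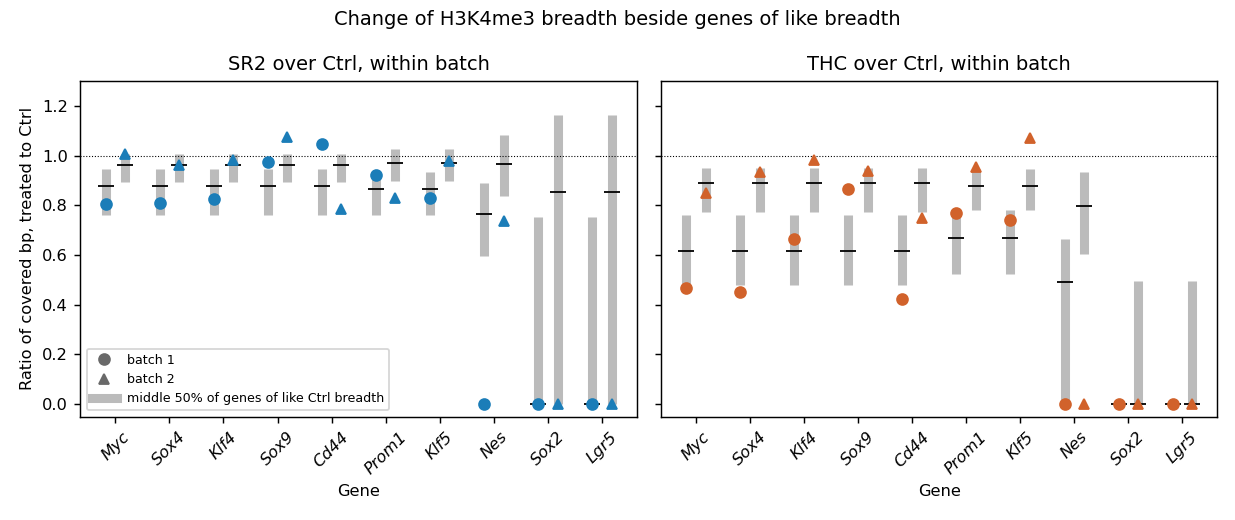
Ratio of H3K4me3 covered bp, treated to Ctrl, within batch 1 (circles) and batch 2 (triangles) for each gene, over the middle 50% (grey bar) and median (black line) of protein-coding genes in the same range of mean Ctrl breadth (under 500, 500 to 1000, 1000 to 2000, and 2000 bp or more). Sox9 is above the median in both batches of both treatments, Klf4, Klf5 and Prom1 in both batches of THC, and Cd44 and Myc are below it in both batches of THC. Nes is below it in both batches of both treatments.

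H3K27me3 was found at Sox2, Klf5 and Lgr5, 3 of the 10 genes beside 11.7% of all protein-coding genes, and at none of the other 7 within the gene or its 5 kb of flank. Sox2 carried 1604 and 296 bp in Ctrl, 415 and 0 bp in SR2, and 2117 and 0 bp in THC. Its longest peaks were thus in Ctrl replicate 1 and THC replicate 1, where the peak ran from position −922 to 1194 relative to the start. Klf5 carried 412 bp in Ctrl replicate 1, 349 bp in THC replicate 1 and 0 bp in the other 4 libraries. Lgr5 carried 460 bp in Ctrl replicate 1, 200 bp in SR2 replicate 2 and 0 bp in the other 4. The peaks at Klf5 and Lgr5 were near the caller's threshold, with −log10 q of 1.13 to 1.57. Those at Sox2, with 1.85 to 2.78, stood higher in their lists by −log10 q. They were at rank 297 of 2712 in Ctrl replicate 1 and 61 of 387 in Ctrl replicate 2. In SR2 replicate 1 the rank was 138 of 840, and in THC replicate 1 it was 258 of 984. With 2 libraries against 2 an exact permutation test cannot pass 0.05, and the lists of THC replicate 2 and SR2 replicate 2 held 70 and 157 peaks in all, so H3K27me3 was not compared between treatments.

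At all 3 genes the H3K27me3 peaks lay over the H3K4me3 region. In Ctrl replicate 1, 87.4% of the Sox2 H3K4me3 peak and 74.8% of the Lgr5 H3K4me3 peak lay inside an H3K27me3 peak of the same replicate. At Klf5 the whole H3K27me3 peak lay inside the H3K4me3 peak, of which it covered 26.4%. Sox2 in THC replicate 1 thus had H3K27me3 over the site that carried H3K4me3 in Ctrl, with no H3K4me3 peak called. That is 1 library, the H3K4me3 library with the lowest median summit pileup (21). The site also carried H3K27me3 in Ctrl replicate 1, and THC replicate 2 had 0 bp of H3K27me3 at Sox2. Over all genes marked in both Ctrl libraries, 1.64% of those with an H3K27me3 peak and 1.53% of those without lacked H3K4me3 in both SR2 libraries, and 5.66% and 5.51% in both THC libraries.

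**Figure D5:**
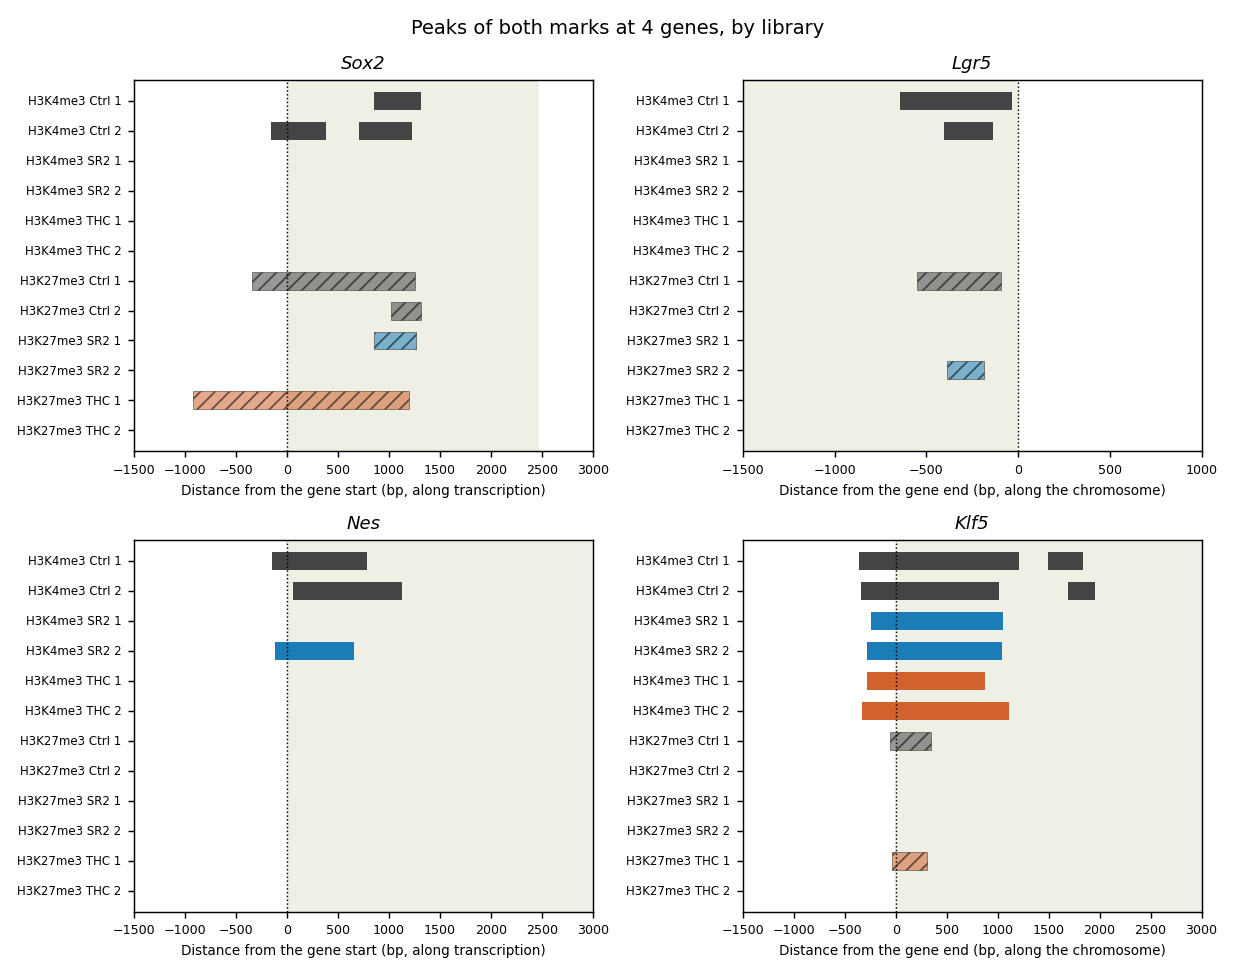
H3K4me3 (solid) and H3K27me3 (hatched) peaks of the 12 libraries (rows) at Sox2, Lgr5, Nes and Klf5, with the distance in bp from the gene start or gene end on the horizontal axis and the gene shaded. Sox2 and Lgr5 have H3K4me3 peaks in the 2 Ctrl libraries alone, over sites that also carry H3K27me3 peaks, and Klf5 keeps its H3K4me3 peak in all 6 libraries.

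Related genes also held both wide regions marked throughout and short ones missing from treated libraries. Of 15 other Klf genes, 13 were marked in both Ctrl libraries and 10 in all 6. Klf10 (2548 and 2547 bp in Ctrl, 2461 and 2702 bp in THC) and Klf13 (2411 and 2463 bp in Ctrl, 2290 and 2373 bp in THC) lay among the wide regions, and were named after their values were seen. Not all wide Klf regions kept their breadth so closely. Klf7 had 2461 and 2478 bp in Ctrl and 714 and 2009 bp in THC, and Klf6 had 2733 and 1944 bp in Ctrl and 1120 and 1732 bp in THC. Klf14, with 310 and 270 bp in Ctrl, had 0 bp in all 4 treated libraries. Of 16 other Sox genes, 9 were marked in both Ctrl libraries, 5 in all 6 and 6 in none, and 7 had an H3K27me3 peak. Of the 13 genes of the Myc network, 13 were marked in both Ctrl libraries and 11 in all 6, and Mycn, the neural paralogue of Myc, had 585 and 510 bp in Ctrl, 453 and 460 bp in SR2 and 0 bp in THC (also named after its values were seen).

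Of 12 genes around Lgr5 and the R-spondins, 8 were marked in both Ctrl libraries and 6 in all 6. Rspo3, which encodes an R-spondin, had 310 and 253 bp in Ctrl and 0 bp in all treated libraries, and 5 of the 12 had an H3K27me3 peak. Of 12 pluripotency genes, 9, among them Pou5f1 and Nanog, were marked in none of the 6 libraries, and Utf1 had 641 and 309 bp in Ctrl and 0 bp in the others. Of 30 other stem, progenitor and plasticity genes of the mammary gland, 23 were marked in both Ctrl libraries and 17 in all 6. Among those 23, 0 lacked a peak in both SR2 libraries and 4 in both THC libraries. The shares over all protein-coding genes marked in both Ctrl libraries were 1.55% and 5.53%. No region of these lists passed limma, as 0 of all regions did.

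The nearest patterns over the 6 libraries were sought for Sox2, Lgr5 and Nes among 12565 protein-coding genes, by Euclidean distance of centred log2(covered bp + 200). They were those of Gpr63 (distance 0.097) and Dchs2 (0.105) for Sox2, Gpx8 (0.113) and Utf1 (0.129) for Lgr5, and Cyp7b1 (0.192) and Gm5148 (0.222) for Nes. Few markers of other cell types were marked, and their summed bp were lower in both THC libraries than in both Ctrl libraries. The same held for the bp of 85.7% of all protein-coding genes marked in both Ctrl libraries. Of the neural genes reported, Tubb3 and Sox10, the latter also counted among the Sox genes, were marked, with a sum of 1319 and 1221 bp in Ctrl, 746 and 995 bp in SR2 and 0 bp in THC, while Gfap and Olig2 had no region. Kdr alone of 5 endothelial genes was marked, at 897 and 559 bp in Ctrl, 559 and 0 bp in SR2 and 0 bp in THC. Of 7 fibroblast genes only Col1a1 was marked, at 1025 and 1045 bp in Ctrl, 901 and 1142 bp in SR2, and 292 and 360 bp in THC. Of 6 blood genes only Cd68 was marked (0 to 391 bp) and of 5 adipocyte genes only Pparg (0 to 1323 bp), while Ptprc and Adipoq had none. The 10 epithelial genes summed to 18392 and 16855 bp in Ctrl, 16584 and 15960 bp in SR2, and 9325 and 14847 bp in THC. The part of other cell types in the missing peaks of Sox2, Lgr5 and Nes was not tested.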

How the data were processed

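CUT&Tag (antibody-guided tagmentation, 60 min, paired-end reads of 150 bp; per the labels' protocols) was analysed from the 12 deposited peak lists, 1 per library. The labels' protocol and the design text name different dissociation enzymes. Per the submitters' processing notes, the build was mm10 and the tools included MACS3, Bowtie2 2.5.4, SAMtools 1.8, cutadapt 5.2, bedtools, deepTools and Picard, with no roles given. Each deposited line gives a peak's position, a score, the fold enrichment (a ratio) and the −log10 p and −log10 q, all the authors' own values, used within a list only. Peak lists hold no read totals. Summit pileups, which depend on enrichment as well as on depth, were recovered from the fold and −log10 p. At least 99.995% of them were whole within 0.005. For H3K27me3 the depth is unknown.

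Peaks of chromosomes 1 to 19, X and Y that overlapped by at least 1 bp were merged into 24596 H3K4me3 regions, and the bp covered by each library were counted. A gene was given the region with the most covered bp within 1 kb of its start, or of either gene end for genes without an entry in the promoter table. Breadth was tested with limma 3.58.1 (R 4.3.3, trend) on log2(covered bp + 200) in 1 fit of 6 libraries, for the 15772 regions marked in at least 2, centred on the 10140 marked in all 6 and adjusted over all regions at 0.05. The script was tested on simulated data. All 10 genes are named, with the 2 nearest patterns of each partly marked gene and the list genes missing from both treatments. The genes, lists and tests were chosen with earlier results of these data known. The labels pair the libraries by batch number. The correlation of deviations of same-numbered libraries was −0.0619 between Ctrl and SR2, 0.0344 between Ctrl and THC, and 0.0479 between SR2 and THC. Sequences are from RefSeq (GRCm38.p6), which held 6 of the 10 genes. A neural marker gene is not reported here.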

Additional observations from a re-analysis of the deposited data

How the results depend on the processing

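The peaks of Sox2, Lgr5 and Nes had 8 to 24 fragments at their summits, which limits what a missing peak shows. The 7 genes marked in all 6 libraries were the same under all alternatives run. The 2 genes without a peak in both SR2 libraries became 0 when peaks needed a −log10 q of at least 5, 0 with at least 500 bp, 0 with equal numbers of peaks and 1 (Lgr5) within 500 bp of the start, and 3 without SR2 replicate 2, where Nes joined. The 3 for THC became 1 with either of the first 2 settings (Nes), 0 with equal numbers of peaks and 2 (Lgr5, Nes) within 500 bp. In the first 3 settings the genes dropped out because the filter removed a Ctrl peak, not because a treated peak appeared. The 3 genes with H3K27me3 became 1 (Sox2) at −log10 q of at least 2 and 1 (Sox2) with at least 500 bp. The count of regions passing limma for SR2, 0, became 1059 with a pseudocount of 50 bp and 994 without centring. For THC it became 1417 and 1914 in the same settings, 39 with regions marked in 1 library, 1929 with only the 4 libraries compared and 4 with equal numbers of peaks. Leaving out 1 library gave 0 to 2183 regions for THC and 0 to 1189 for THC against SR2, the highest both without THC replicate 2, which leaves the shallow library alone. The cause of these differences between settings was not tested. Of the 10 genes, 2 passed for SR2 with a pseudocount of 50 bp (Sox2, Lgr5) and 1 without centring (Sox2). For THC 2 passed with that pseudocount and 2 without centring (Sox2, Lgr5), and 2 with only the 4 libraries (Sox2 and Nes, adjusted p 0.0471 by limma).

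Small log2 changes turned sign. For SR2, Klf4 became 0.006 with a pseudocount of 50 bp and 0.009 with 4 libraries, Myc 0.005 and 0.007 in these settings. Klf5 became −0.131 without centring, −0.004 with quantile normalization and −0.003 at −log10 q of at least 5, and Cd44 −0.133, −0.029 and −0.005, and −0.014 with a pseudocount of 1000 bp. Leaving out 1 library gave −0.086 to 0.025 for Sox4, −0.026 to 0.021 for Klf4, −0.043 to 0.058 for Klf5, −0.06 to 0.051 for Myc, −0.176 to 0.189 for Cd44 and −0.174 to 0.116 for Prom1. For THC the values without centring were −0.14 for Sox9, −0.281 for Klf4, −0.146 for Klf5 and −0.193 for Prom1. Klf4 became −0.253 at −log10 q of at least 5, Lgr5 0.113 with quantile normalization, and Sox4 −0.424 to 0.059 when 1 library was left out. With the replicate block 0 regions passed in each comparison, with smallest adjusted p of 0.194 for SR2, 0.193 for THC and 0.54 for THC against SR2 by limma, so the block changed no call. The ranks and left-out libraries for genes lower in both treated libraries were added after seeing the data, and leaving out 1 library gave 8 to 9 genes for SR2, beside 55.7% to 78.9% of all genes marked in Ctrl, and 9 to 10 for THC, beside 87.2% to 97.9%.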
